A study of Mus musculus with 4 samples.

Results

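The genes of fatty acid synthesis and of sebaceous lipid were followed in dorsal skin of adult male mice. They were chosen by name from the steps of the pathway: 35 genes, of which 32 had a probe set listed with that gene alone, among 18193 genes so listed on the array. Awat1 and Awat2, which encode acyltransferases that form wax esters, and Soat1, which encodes a cholesterol esterification enzyme, had no such probe set and were not analysed here. Skin of C57B6 males at postnatal day 54 (P54, a middle time of adult telogen) was compared with skin of C57B6 males at postnatal day 59 (P59, a late time), with 2 arrays per time and no treatment or mutation in either group. The whole shaved skin was used, so epidermis, follicles, sebaceous glands, dermal fat and the muscle beneath it contribute to each value, and fewer cells of a type cannot be told apart from less RNA per cell. The labels call the arrays biological replicates without naming the animals, so p-values rest on the spread between these samples. For each gene limma takes that spread in part from all genes tested (2 residual and 8.18 prior degrees of freedom).

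Fatty acid synthesis starts when citrate leaves the mitochondrion and is cleaved to cytosolic acetyl-CoA, which is carboxylated to malonyl-CoA and built into palmitate by fatty acid synthase. Elongases of the Elovl family lengthen the chain, stearoyl-CoA desaturases and fatty acid desaturases add double bonds, and acyltransferases join the products to glycerol, fatty alcohols or cholesterol. In skin the pathway feeds the sebaceous gland, whose cells burst to release wax esters and triglycerides as sebum, as well as the dermal adipocytes and the very long acyl chains of the epidermal barrier.

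Most members differed by less than 0.5 (log2) between middle and late telogen, and the desaturase gene Scd3 differed by more. Scd3 was 1.88-fold higher at P59, with its second probe set higher as well. Its near relative Scd1 differed by 0.10 (log2) on its brightest probe set. The dimmer Scd1 set was above both P54 arrays in P59 replicate 1 and below both in P59 replicate 2. The long-chain acyl-CoA synthetase gene Acsl3 was 1.43-fold higher. The triglyceride assembly genes Agpat2 and Dgat2 and the elongase gene Elovl1 were lower, by 0.37 to 0.48 on the log2 scale. None of the 30 members bright enough to be tested passed the adjusted threshold in limma (threshold 0.05, Benjamini-Hochberg over all 10916 genes tested). Over all genes tested 2 passed, or 0.0183%.

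At an unadjusted limma p under 0.05 there were 2 members of 30, Scd3 and the citrate carrier gene Slc25a1, or 6.67%, against 6.49% of all genes tested. The first was higher, as were 3.47% of all genes at that p, and the second lower, as were 3.01%. The groups did not overlap for 11 of the 30 members, or 36.7%, against 33.7% of all genes: 6 were higher at P59 (18.9% of all genes were) and 5 were lower (14.8% of all genes were). These shares were near those of all genes. The median difference, P59 minus P54 in mean log2 intensity, was -0.01 over the members, with 14 higher and 16 lower, and 0.05 over all genes tested, of which 58.4% were higher. For 28 of the 30 members the 95% interval of the difference spanned 0, and 26 differed by less than 0.5.

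**Figure D1:**
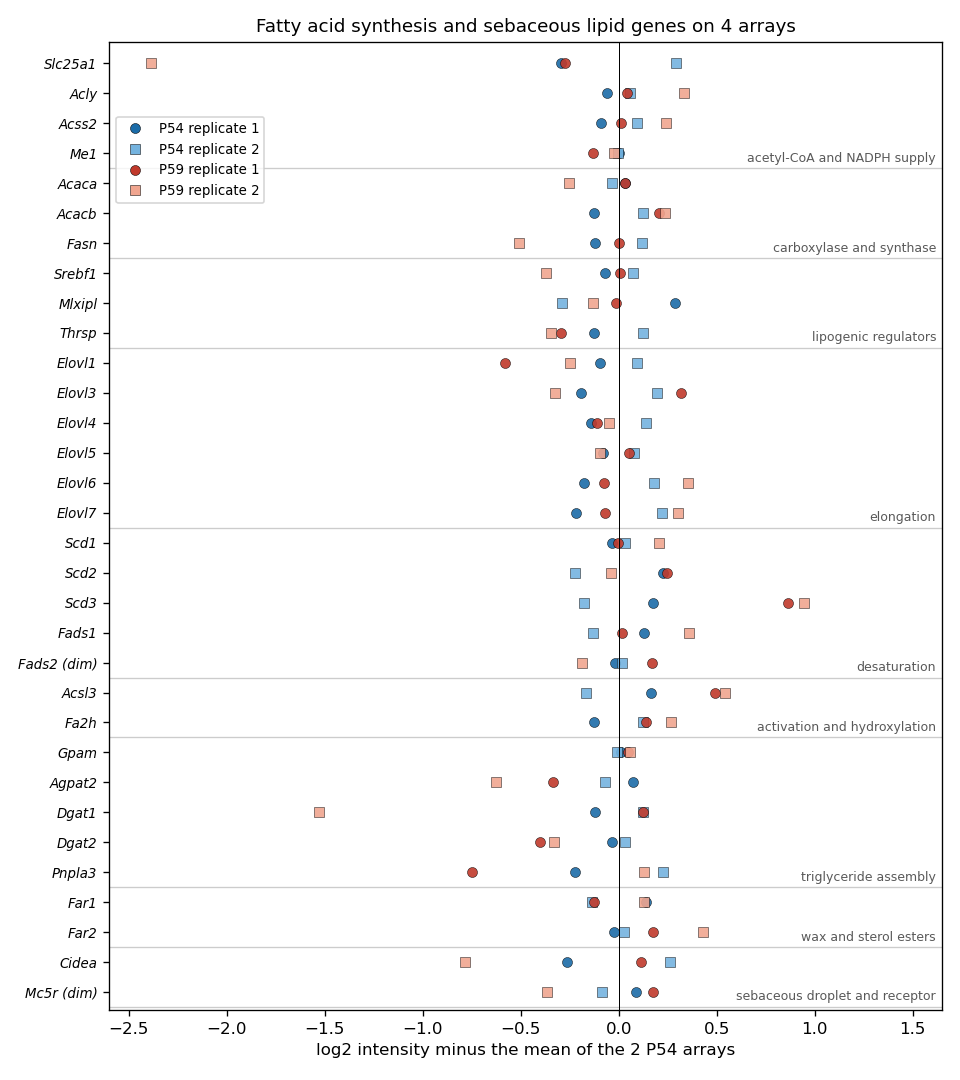
Log2 intensity of each member on the 4 arrays, as the distance from the mean of the 2 P54 arrays (horizontal axis, log2), with genes in rows by step; circles are replicate 1 and squares replicate 2, blue for P54 and red for P59, and dim genes are those below the intensity filter. Both P59 points of Scd3 lie to the right of its P54 points, and the P59 replicate 2 points of Slc25a1 and Dgat1 lie far to the left of the other 3.

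The arrays were not of one quality. On the first principal component P59 replicate 2 scored 35.4 and the other 3 arrays -22.5 to -4.31. The array maker's control sets measure the 3′ and 5′ ends of the same transcript. For Gapdh the 3′ end exceeded the 5′ end by 0.34 and 0.20 (log2) on the P54 arrays, by 0.23 in P59 replicate 1 and by 4.57 in P59 replicate 2. For Actb these distances were 0.45, 0.52 and 0.18, and 1.64 in P59 replicate 2. Where a member's difference on its chosen probe set moved by more than 1.5 times without P59 replicate 2, its value without that array stands beside it or in the plot of member differences. Differences of further probe sets of a gene are given with all 4 arrays.

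**Figure D2:**
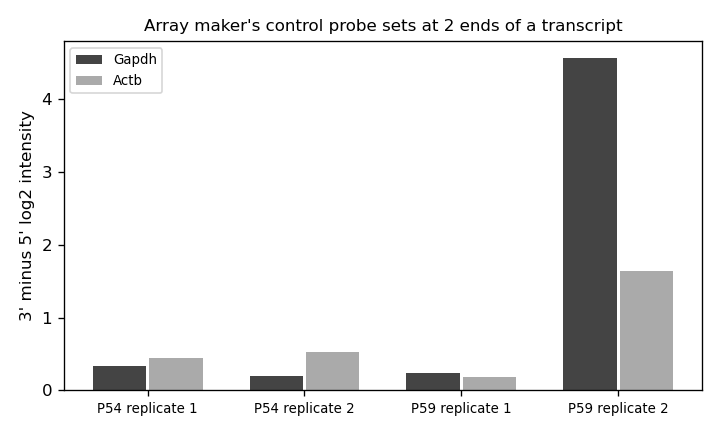
Distance between the 3′ and 5′ control probe sets of Gapdh (dark bars) and Actb (light bars) on each array, in log2 intensity. The bars of P59 replicate 2 reach 4.57 and 1.64, and the other 6 bars stay between 0.18 and 0.52.

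The promoters of Scd3, Slc25a1 and Acsl3 are shown because these genes, with Dgat1, were the 4 members that differed by 0.5 or more. Each runs from 250 bases before to 50 bases after the start of the gene, 5′ to 3′ on the gene's strand, from RefSeq on GRCm38.p6. Capitals mark the letters CACGTG (the E-box bound by SREBP1, ChREBP and USF factors), CCAAT (the box bound by NF-Y) and TCACNCCAC (the core of a sterol regulatory element), each searched on both strands. No 2 matches overlap in these windows. Scd3 lies at chr19:44203038-44203337 on the plus strand, Slc25a1 at chr16:17928170-17928469 on the minus strand and Acsl3 at chr1:78657575-78657874 on the plus strand.
Scd3: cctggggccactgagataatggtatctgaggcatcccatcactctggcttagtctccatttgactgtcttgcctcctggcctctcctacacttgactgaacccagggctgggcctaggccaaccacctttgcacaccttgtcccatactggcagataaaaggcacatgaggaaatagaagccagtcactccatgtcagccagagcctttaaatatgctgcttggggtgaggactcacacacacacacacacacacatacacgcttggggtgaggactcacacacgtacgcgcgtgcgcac
Slc25a1: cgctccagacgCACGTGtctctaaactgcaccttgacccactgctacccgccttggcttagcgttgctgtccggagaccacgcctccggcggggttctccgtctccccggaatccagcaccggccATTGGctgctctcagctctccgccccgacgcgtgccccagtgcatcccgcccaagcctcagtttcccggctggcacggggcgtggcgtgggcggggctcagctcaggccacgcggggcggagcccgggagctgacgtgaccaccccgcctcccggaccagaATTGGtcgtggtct
Acsl3: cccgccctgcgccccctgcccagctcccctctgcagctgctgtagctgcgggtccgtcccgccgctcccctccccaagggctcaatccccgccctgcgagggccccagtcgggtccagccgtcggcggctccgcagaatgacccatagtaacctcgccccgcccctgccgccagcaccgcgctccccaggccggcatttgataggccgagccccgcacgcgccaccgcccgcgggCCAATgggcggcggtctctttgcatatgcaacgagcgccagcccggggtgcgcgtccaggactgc

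The Slc25a1 window holds 1 E-box and 2 CCAAT boxes, the Acsl3 window holds 1 CCAAT box, and the Scd3 window holds none of the 3 motifs. Of the members, 26 had a promoter in the table, with 33 windows in all because some genes have several starts. CCAAT occurred in 63.6% of these windows against 37.4% of all 32851 promoters, CACGTG in 12.1% against 7.15%, and TCACNCCAC in 3.03% against 1.24%. The E-box was in windows of Elovl4, Elovl5, Mlxipl and Slc25a1, and the sterol element core in a window of Mlxipl. These matches describe the letters only.

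Acetyl-CoA and NADPH supply came first in the pathway, and Slc25a1 was the member with the largest difference. Slc25a1, which carries citrate out of the mitochondrion, was at a log2 intensity of 8.97 and 9.55 on the P54 arrays and of 8.98 and 6.88 on the P59 arrays. P59 replicate 1 lay between the P54 arrays, so the groups overlapped, and the low value was that of P59 replicate 2, the array with the large 3′ to 5′ distance. The means were 9.26 ± 0.41 and 7.93 ± 1.49 (SD, n = 2), a difference of -1.33 (SE 0.53, limma adjusted p = 0.716). Without P59 replicate 2 the difference was -0.28, and Slc25a1 has a single probe set. Whether the transcript end measured plays a part was not tested.

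The 3 other supply genes differed by less than 0.2. Acly, which cleaves citrate to acetyl-CoA, was at 11.50 and 11.61 on the P54 arrays and at 11.60 and 11.89 on the P59 arrays (difference 0.19, 95% interval -0.33 to 0.70). Acss2, which makes acetyl-CoA from acetate, differed by 0.13 (-0.39 to 0.64). Me1, the malic enzyme that supplies NADPH, was at 11.28 on both P54 arrays and at 11.15 and 11.26 at P59. The Me1 groups did not overlap, but the distance was -0.08 (-0.57 to 0.42).

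Among the committed steps only Acacb had separate groups, and the intervals of all 3 differences spanned 0. Fasn, fatty acid synthase, was at 11.37 and 11.61 on the P54 arrays and at 11.49 and 10.98 on the P59 arrays. P59 replicate 1 lay between the P54 arrays and P59 replicate 2 below them; the difference was -0.25 (-0.82 to 0.31), and 0.0018 without P59 replicate 2. Acaca, the acetyl-CoA carboxylase of the cytosol, was at 9.44 and 9.37 on the P54 arrays and at 9.43 and 9.15 on the P59 arrays (-0.11, or 0.03 without P59 replicate 2). Acacb, the carboxylase at the mitochondrial surface whose malonyl-CoA restrains fatty acid oxidation, was at 9.66 and 9.91 on the P54 arrays and at 9.99 and 10.02 on the P59 arrays. The difference of Acacb was 0.22 (-0.28 to 0.73), and 0.098 without P54 replicate 1.

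All 3 lipogenic regulators were lower in mean at P59, none with an unadjusted limma p under 0.05. Srebf1, the transcription factor SREBP1 that drives lipogenic genes, was at 9.85 and 9.997 on the P54 arrays and at 9.93 and 9.56 on the P59 arrays. Its difference of -0.18 (-0.71 to 0.35) became 0.0066 without P59 replicate 2. Mlxipl, which encodes the carbohydrate-responsive factor ChREBP, varied most within P54, at 8.73 and 8.15, with 8.42 and 8.31 at P59 (-0.07, or 0.21 without P54 replicate 1). Thrsp, a small protein of lipogenic tissues, was at 9.85 and 10.10 on the P54 arrays and at 9.69 and 9.63 on the P59 arrays. The Thrsp groups did not overlap, and the difference of -0.32 (-0.83 to 0.19) was -0.29 without P59 replicate 2. A second bright set of Thrsp differed by -0.35, with its low value in P59 replicate 2, and the dimmest of the 3 by 0.12.

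Among the 6 elongases Elovl1 alone had separate groups. Elovl1, which lengthens saturated chains to the very long lengths of barrier ceramides, was at 11.86 and 12.05 on the P54 arrays and at 11.38 and 11.71 on the P59 arrays. Both P59 arrays were lower than both P54 arrays, with a difference of -0.41 (SE 0.24, limma adjusted p = 0.870). Its other bright sets differed by -0.47 and -0.96. The latter set was at 11.50 and 11.48 on the P54 arrays and at 11.02 and 10.05 on the P59 arrays. Its lowest value was thus in P59 replicate 2. Without P59 replicate 2 the difference of the chosen set was -0.58.

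The remaining elongases differed by less than 0.2 in mean, with all arrays. Elovl4, whose enzyme makes the ultra-long acyl chains of the epidermal barrier, differed by -0.08 (-0.59 to 0.43) and by -0.07 on its second set. Elovl5, an elongase of polyunsaturated chains, differed by -0.02 (-0.53 to 0.48). Elovl3, an elongase abundant in sebaceous glands and brown fat, was at 10.13 and 10.51 on the P54 arrays and at 10.64 and 9.99 on the P59 arrays. The P59 arrays of Elovl3 were thus its highest and its lowest, with a difference of -0.0035, and of 0.32 without P59 replicate 2. Elovl6, which takes palmitate to stearate, was at 11.87 and 12.23 on the P54 arrays and at 11.97 and 12.41 on the P59 arrays (0.14, -0.42 to 0.70). Its second set was at 10.06, 10.94, 10.43 and 9.80 in the same order and differed by -0.39, and its dimmest by -0.21. Elovl7 differed by 0.12 (-0.45 to 0.68) on the chosen one of 6 sets, which ranged from -0.15 to 0.55.

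The desaturases held the clearest difference. Scd3, a stearoyl-CoA desaturase of mouse skin that puts the first double bond into saturated chains, was at 9.85 and 9.50 on the P54 arrays and at 10.54 and 10.62 on the P59 arrays. Both P59 arrays were above both P54 arrays by at least the distance between the P54 arrays. The means were 9.68 ± 0.25 and 10.58 ± 0.06 (SD, n = 2), a difference of 0.91 (SE 0.24, 95% interval 0.38 to 1.43, limma adjusted p = 0.398). The second set of Scd3 was at 8.28 and 7.79 on the P54 arrays and at 9.02 and 9.32 on the P59 arrays, a difference of 1.13. Leaving out 1 array at a time, the difference of the chosen set ranged from 0.73 to 1.08, and it was 0.87 without P59 replicate 2. Without P54 replicate 2, the lowest array, the unadjusted limma p was 0.0844.

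The other desaturases differed by less on their chosen sets. Scd1, the main stearoyl-CoA desaturase of the sebaceous gland and of fat, was at 13.84 and 13.91 on the P54 arrays and at 13.87 and 14.09 on the P59 arrays (0.10, -0.40 to 0.61). Its second set was at 10.37, 10.15, 11.02 and 9.91, and differed by 0.20. That set lay above both P54 arrays in P59 replicate 1 and below both in P59 replicate 2. Scd2, the desaturase gene best known from brain and newborn skin, was at 10.27 and 9.82 on the P54 arrays and at 10.29 and 10.004 on the P59 arrays (0.10, -0.45 to 0.66). A second Scd2 set, at 9.08, 8.50, 9.22 and 6.34, differed by -1.01 through its low value in P59 replicate 2. Whether Scd3 differed more than Scd1 or Scd2 was not tested. Fads1, the desaturase that completes arachidonic acid, differed by 0.19 (-0.35 to 0.72). Fads2, the first desaturase of that route, lay between 5.73 and 6.09 on the 4 arrays, under the intensity filter of 6.58, and was not tested.

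**Figure D3:**
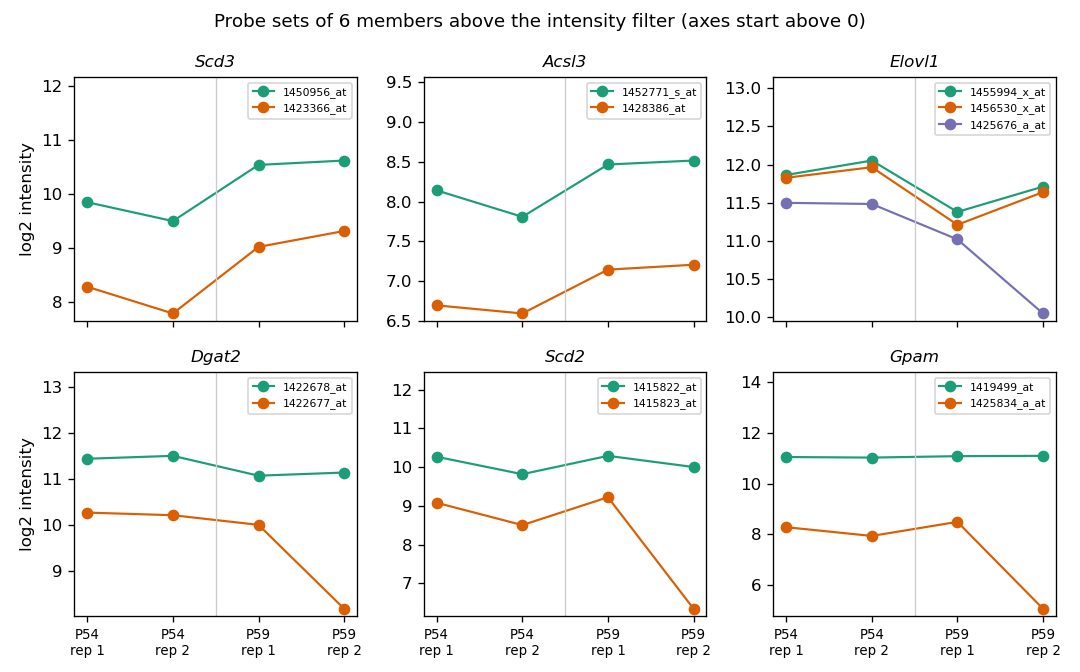
Log2 intensity (vertical axes, each with its own range) of every probe set above the intensity filter for 6 members on the 4 arrays; each line is 1 probe set. The sets of Scd3 and of Acsl3 run in parallel and lie higher on both P59 arrays, while 1 set each of Dgat2, Scd2 and Gpam drops in P59 replicate 2 alone, to 8.18, 6.34 and 5.06.

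Probe sets of the same gene gave different answers for some members. Of the 17 members with 2 or more sets above the filter, 10 had differences of one sign and 7 of both signs, and for 5 of these 7 (Elovl6, Elovl7, Far1, Gpam and Scd2) the sets lay more than 0.5 apart. Over the 4200 genes with at least 2 bright sets, the 2 brightest disagreed by more than 1 (log2) on how far P59 replicate 2 lay from the other arrays for 11.5%. On the 2 P54 arrays that share was 0.571% and 5.19%, and on P59 replicate 1 it was 1.43%. Of the 17 members, 4 disagreed by more than 1 on P59 replicate 2.

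Acyl-CoA activation and hydroxylation genes were higher at P59 on both arrays. Acsl3, a long-chain acyl-CoA synthetase of the endoplasmic reticulum and lipid droplets, was at 8.14 and 7.81 on the P54 arrays and at 8.46 and 8.51 on the P59 arrays. The groups were apart, with means of 7.97 ± 0.23 and 8.49 ± 0.03 (SD, n = 2) and a difference of 0.52 (SE 0.23, limma adjusted p = 0.770). Its second bright set differed by 0.53, and the difference was 0.49 without P59 replicate 2. Fa2h, the hydroxylase that makes 2-hydroxy fatty acids for sebaceous and epidermal ceramides, was at 12.41 and 12.66 on the P54 arrays and at 12.67 and 12.80 on the P59 arrays (0.20, -0.31 to 0.71).

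Of the 5 triglyceride assembly genes 4 were lower in mean at P59, with a median of -0.37. Agpat2, the acyltransferase that makes phosphatidic acid, was at 9.23 and 9.09 on the P54 arrays and at 8.82 and 8.53 on the P59 arrays, 2 separate groups (difference -0.48, SE 0.23, limma adjusted p = 0.804). Without P59 replicate 2 the difference of Agpat2 was -0.33. Dgat2, which adds the last acyl chain, was at 11.45 and 11.51 on the P54 arrays and at 11.08 and 11.15 on the P59 arrays. These groups were also apart, and the difference of -0.37 (-0.86 to 0.13) was -0.40 without P59 replicate 2. A second Dgat2 set, at 10.27, 10.22, 10.01 and 8.18, differed by -1.15.

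Dgat1, the other enzyme of that last step, was at 9.39 and 9.64 on the P54 arrays and at 9.64 and 7.98 on the P59 arrays. Its difference of -0.70 (-1.66 to 0.26) lay in P59 replicate 2 and was 0.12 without that array. Pnpla3, a lipid droplet protein under the control of SREBP1, was at 7.69 and 8.13 on the P54 arrays and at 7.16 and 8.04 on the P59 arrays. Here P59 replicate 1 was the low array, and the difference of -0.31 became -0.75 without P59 replicate 2 (an unadjusted limma p under 0.05) and 0.13 without P59 replicate 1. Gpam, the mitochondrial acyltransferase that starts glycerolipid synthesis, was at 11.05 and 11.03 on the P54 arrays and at 11.08 and 11.10 on the P59 arrays (0.05, -0.44 to 0.54). The second Gpam set was at 8.28, 7.93, 8.49 and 5.06, a difference of -1.33 that lay in P59 replicate 2.

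The fatty alcohol and sebaceous genes gave small differences. Far2, a reductase that makes the fatty alcohols of wax esters, was at 11.03 and 11.08 on the P54 arrays and at 11.24 and 11.49 on the P59 arrays. The groups did not overlap, with a difference of 0.30 (-0.21 to 0.81) and of 0.34 on its second set. Far1, the other reductase, was at 9.18 and 8.91 on the P54 arrays and at 8.92 and 9.18 on the P59 arrays, a difference of 0.0017, and its 4 bright sets ranged from -0.18 to 0.40. Cidea, a droplet fusion protein of sebocytes and brown fat, was at 10.04 and 10.56 on the P54 arrays and at 10.41 and 9.51 on the P59 arrays. The P59 arrays of Cidea lay far apart, and the difference of -0.34 (-1.05 to 0.37) was 0.11 without P59 replicate 2. Mc5r, the melanocortin receptor of sebocytes, lay between 5.31 and 5.85, under the filter, and was not tested.

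**Figure D4:**
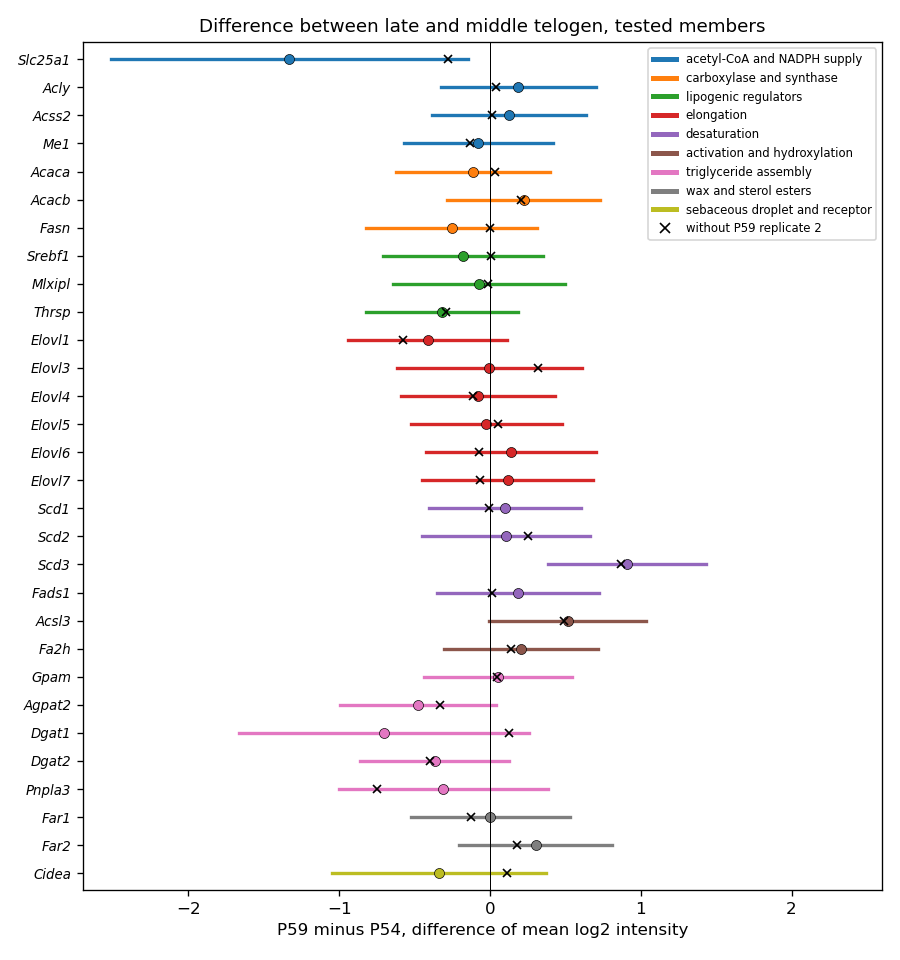
Difference between P59 and P54 in mean log2 intensity for the 30 tested members (points), with limma's 95% interval (bars, 2 arrays per group) and the difference without P59 replicate 2 (crosses). The intervals of Scd3 and Slc25a1 exclude 0; the cross of Scd3 stays at 0.87 while that of Slc25a1 lies at -0.28.

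The label of a sebaceous and lipogenic skin was checked against marker genes. Of 13 sebaceous gland genes 11 had a probe set and 10 were above the filter, among them Pparg, Mgst1, Apoc1 and Krt79, while Muc1 was below it. Of the 10, 9 were higher at P59 with a median difference of 0.16, and 0 had an unadjusted limma p under 0.05 or passed the adjusted threshold. The median was 0.084 without P59 replicate 2 and 0.10 without P54 replicate 1. The smallest p was that of the beta-defensin gene Defb6 (0.50, limma adjusted p = 0.835). Their summed linear intensity was 33003 and 34237 at P54 and 37062 and 39529 at P59. The median log2 intensity of the 10 was 11.04 and 11.41 at P54 and 11.40 and 11.34 at P59. For 7 of the 10 the groups overlapped, and 3 were higher with separate groups (18.9% of all genes were). Of the 30 tested members, 6 were higher on both P59 arrays: Scd3, Acsl3, Fa2h, Far2, Acacb and Gpam. Lower on both were 5: Elovl1, Agpat2, Dgat2, Thrsp and Me1. Scd1 differed by 0.10, or by -0.0039 without P59 replicate 2. The sebaceous members Elovl3 and Cidea differed by -0.0035 and -0.34, or by 0.32 and 0.11 without P59 replicate 2. Mc5r was too dim to test. The part of sebaceous gland content in these members' values was not tested.

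White adipocyte genes lay on the other side. Of 10 tested adipocyte markers 8 were lower at P59, with a median of -0.25 that was -0.15 without P59 replicate 2, -0.14 without P54 replicate 1, -0.38 without P54 replicate 2 and -0.40 without P59 replicate 1. Of the 10, 2 were lower at an unadjusted limma p under 0.05 (3.01% of all genes were): Cidec, a droplet protein, by -0.80 (limma adjusted p = 0.599), and Gpd1, which makes glycerol phosphate, by -0.94 (limma adjusted p = 0.764). Without P59 replicate 2 these differences were -0.42 and -0.15. The adipokine gene Adipoq differed by -0.44 (limma adjusted p = 0.861). Their summed intensity was 38026 and 33214 at P54 and 32495 and 32118 at P59. The median log2 intensity of these markers was 10.52 and 10.58 at P54 and 10.52 and 10.39 at P59. Agpat2, Dgat2, Dgat1 and Thrsp, which adipocytes also express, were lower on average beside them. Other members were not: Scd1 (0.10), Acly (0.19), Acacb (0.22) and Gpam (0.05) were higher on average. Without P59 replicate 2 these differences were -0.0039, 0.041, 0.21 and 0.045 in that order. The second Gpam set differed by -1.33, through its low value in P59 replicate 2. Dgat1 differed by 0.12 without P59 replicate 2. Of all 30 tested members 16 were lower and 14 higher, and the part of fat content in their values was not tested. The brown adipocyte genes Ucp1, Dio2 and Prdm16 were below the filter on average, while Cox8b of that list was above it, as were the members Elovl3 and Cidea. Epidermal markers were lower for 8 of 9 genes (median -0.24, and -0.054 without P59 replicate 1), and macrophage markers were higher for 8 of 8 (median 0.66). Muscle markers were lower for 4 of 8, with a median of 0.04 that ranged from -0.12 to 0.21 as single arrays were left out.

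Genes of the inner root sheath, a layer of the growing follicle, were listed as a check of the telogen label. Of 8 such genes 7 were tested. The filter of 6.58 applied to the mean of all 4 arrays, so a gene dim at P54 could pass through its P59 values. The median log2 intensity of the 7 was 6.97 and 5.42 on the P54 arrays and 10.31 and 8.51 on the P59 arrays. Of the 7, 6 were higher at P59, 5 of them at an unadjusted limma p under 0.05. Over all genes 3.47% were higher at that p. None of the 7 passed the adjusted threshold. Their summed linear intensity was 2094 and 2112 at P54 and 12659 and 3518 at P59, highest in P59 replicate 1. The median difference of 3.70 was 2.15 without P59 replicate 1, 2.52 without P54 replicate 2 and 4.61 without P59 replicate 2. Both P59 arrays, labelled late telogen, had a higher summed signal than both P54 arrays, and the part of follicle stage in the members' values was not tested.

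Other genes of lipogenesis were taken from a list of 44 partners: elongation cycle enzymes, acyltransferases, SREBP processing factors and NADPH enzymes. Of these 40 had a probe set and 35 were tested; 19 were higher and 16 lower at P59, with a median of 0.09 that was -0.0022 without P59 replicate 2, 0.019 without P54 replicate 1 and 0.16 without P59 replicate 1. None passed the adjusted threshold in limma, and 1 had an unadjusted p under 0.05 (2.86% of the list against 6.49% of all genes). That gene was Fads6, of the desaturase family, at 7.04 and 7.34 on the P54 arrays and at 6.64 and 6.07 on the P59 arrays (-0.84, adjusted p = 0.516, and -0.55 without P59 replicate 2). Tecr, the reductase that closes each elongation cycle, differed by -0.77 through its value of 10.60 in P59 replicate 2, and by -0.0022 without it. Gpat4, an acyltransferase of the endoplasmic reticulum, differed by -0.62, and by -0.12 without P59 replicate 2. Insig2, which retains SREBP in the endoplasmic reticulum, differed by 0.43 with separate groups (limma adjusted p = 0.870), and by 0.25 without P59 replicate 2.

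**Figure D5:**
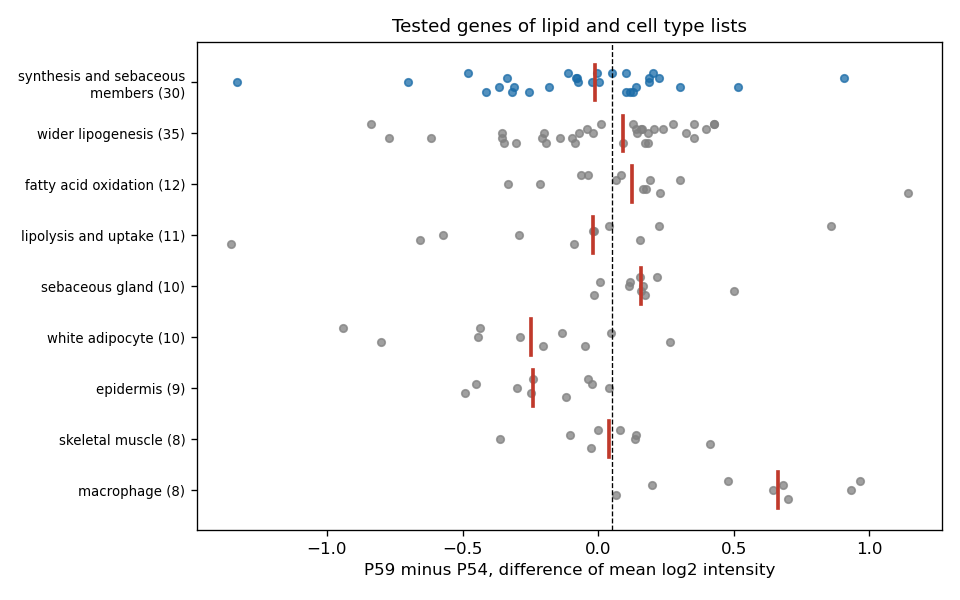
Difference between P59 and P54 in mean log2 intensity (horizontal axis) for the tested genes of each list (points; number of genes in brackets), with the median of the list (red bar) and the median of all genes tested (dashed line, 0.05). The members' median of -0.01 and that of the wider lipogenesis list, 0.09, lie on either side of the dashed line, while the white adipocyte median lies at -0.25 and the macrophage median at 0.66.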

How the data were processed

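Whole dorsal skin RNA of male C57B6 mice was labelled and hybridised to 4 arrays, 2 at P54 and 2 at P59. The authors deposited linear probe set intensity values (6.41 to 24000) for all 4 arrays. RMA and Affymetrix Expression Console are named in the submitters' processing notes, and their versions are not given in the sources used here. All values were log2-transformed with no pseudocount. Of 45101 probe sets, 34945 non-control sets carried 1 gene symbol in the platform annotation from GEO (possibly outdated), 932 several and 9211 were unlisted. By Entrez identifier 34741 matched RefSeq on GRCm38.p6, used for names. The set with the highest mean stood for a gene, and the 10916 genes with a mean log2 intensity over its 40th percentile (6.58) were tested. The 2 times were compared by limma 3.58.1 under R 4.3.3 (lmFit, eBayes, two-sided, Benjamini-Hochberg, 0.05), with 2 residual and 8.18 prior degrees of freedom. An exact permutation test of 2 against 2 arrays cannot go below p = 0.333. The number of arrays limits the precision.

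Members, lists and the naming rule were chosen with earlier results of these data known. The rule named every member, and gave the values of all arrays at least for those at an unadjusted p under 0.05, those apart by 0.5 with separate groups and those with disagreeing probe sets, and up to 4 genes of smallest p per list. Values of further members, and markers named outside the rule, were added after their values were seen. Control probe sets and the agreement of probe sets were examined after seeing the data. The fit was tested on simulated data with independent values and the same spread of a gene on all 4 arrays. Those data do not copy the lower quality of P59 replicate 2. Replicate numbers did not pair the arrays by the labels. The brown adipocyte list had 1 of 3 tested genes higher.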

Additional observations from a re-analysis of the deposited data

How the results depend on the processing

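Alternatives changed 1 choice at a time. The count of all genes past the adjusted limma threshold, 2, was unchanged with an intensity trend and was 0 without the filter, with a filter at the 60th percentile, with the mean of all probe sets, with plain probe sets alone, after repeated quantile normalization and with log2 of intensity plus 16 (457 to 1122 genes at an unadjusted p under 0.05). It was 156 with the replicate number as a block, and 29 to 402 with 1 array left out, where the lone array is assumed to vary like the others. The labels do not pair the arrays, so the replicate numbers are not taken as pairs. The deviations of same-numbered arrays from their group means correlated at -0.04. With 2 arrays per group these deviations mirror each other, so this single value cannot show whether the arrays are paired. With the block Slc25a1 had a limma adjusted p of 0.00233. Slc25a1 also passed without P54 replicate 1 (0.0234) and without P59 replicate 1 (0.00866), and Dgat1 without P59 replicate 1 (0.0172), where P59 replicate 2 is the lone P59 array. Members at an unadjusted p under 0.05 numbered 2 or 3 in the other settings and 1 to 5 with 1 array left out: 1 without P54 replicate 2 (Slc25a1) and 5 without P59 replicate 1. Scd3 was among them in every setting except without P54 replicate 2, and Slc25a1 was not among them without the filter, with the mean of all probe sets (its value was the same, since it has 1 set), after repeated quantile normalization and without P59 replicate 2. The median of the members stayed between -0.08 and 0.05.

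The direction held for 13 of 30 members in every setting that gave them a value (Elovl1 and Fa2h had none with plain probe sets alone), Scd3, Slc25a1, Acsl3, Agpat2, Dgat2, Elovl1, Thrsp and Far2 among them. With the mean of all probe sets the sign turned for Acaca (0.023), Elovl6 (-0.15), Scd2 (-0.45), Fads1 (-0.035) and Gpam (-0.64). With 1 array left out these members ranged across 0: Acaca -0.26 to 0.031, Fasn -0.51 to 0.0018, Srebf1 -0.37 to 0.0066, Mlxipl -0.36 to 0.21, Elovl3 -0.33 to 0.32, Elovl4 -0.22 to 0.059, Elovl5 -0.10 to 0.056, Elovl6 -0.076 to 0.36, Elovl7 -0.10 to 0.34, Scd1 -0.0039 to 0.21, Scd2 -0.12 to 0.33, Dgat1 -1.53 to 0.12, Pnpla3 -0.75 to 0.13, Far1 -0.14 to 0.14 and Cidea -0.78 to 0.11. The cause was not tested. Intensity limits Fads2 and Mc5r, which were too dim to test.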

Other observations

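Of 11 tested genes that break down or import fat 4 were higher and 7 lower at P59, with 3 at an unadjusted limma p under 0.05 (27.3% against 6.49% of all genes) and 0 past the adjusted threshold. Their median of -0.02 was 0.11 without P59 replicate 2, 0.050 without P54 replicate 1 and -0.19 without P59 replicate 1. Vldlr, the very low density lipoprotein receptor, was at 9.28 and 8.82 on the P54 arrays and at 10.04 and 9.78 on the P59 arrays, a difference of 0.86 (SE 0.25, limma adjusted p = 0.490) that was 0.99 without P59 replicate 2. G0s2, an inhibitor of the adipose triglyceride lipase, was at 8.14 and 7.94 on the P54 arrays and at 7.31 and 7.45 on the P59 arrays, a difference of -0.66 (limma adjusted p = 0.599) that was -0.73 without P59 replicate 2. The remaining gene was Lipe, hormone-sensitive lipase, at 8.79 and 9.47 on the P54 arrays and at 8.51 and 7.05 on the P59 arrays. The difference of Lipe was -1.35 (limma adjusted p = 0.511), and -0.62 without P59 replicate 2.

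Of 12 tested fatty acid oxidation genes 8 were higher at P59, with a median of 0.13. It ranged from 0.068 without P54 replicate 2 to 0.20 without P59 replicate 1. Of the 12, 7 were higher with separate groups, against 18.9% of all genes. At an unadjusted limma p under 0.05 there was 1 gene (8.33% against 6.49% of all genes), and 0 passed the adjusted threshold. Pdk4, a kinase that shuts pyruvate out of oxidation when fat is burned, was at 10.71 and 9.999 on the P54 arrays and at 10.99 and 12.01 on the P59 arrays. Its difference of 1.14 (SE 0.35, limma adjusted p = 0.506) was 0.63 without P59 replicate 2. Hadha and Acadl, of the oxidation cycle, were lower with separate groups (14.8% of all genes were), by -0.33 (-0.14 without P59 replicate 2) and -0.06.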
